A study of Mus musculus with 190 samples.

Results

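Genes annotated to rRNA processing were followed in the whole blood of male NC/Nga mice. This inbred strain is used as a model of atopic dermatitis because its skin can become inflamed in conventional housing. A gene was a member when the Biological Process column of the count table held the exact term rRNA processing, its type was protein-coding and its symbol was not that of a cytosolic or mitochondrial ribosomal protein. This left out 18 ribosomal protein genes and 2 genes that are not protein-coding, and the members made up 0.233% of the 55414 genes in the table and 0.589% of its 21884 protein-coding genes. The members were selected on annotation alone, but the term was taken up with their CPM values by group and by score in these data known. Each count of members is therefore a description, set beside the same count over all genes. A filter on low counts passed all but 3 members, Rpp25, Cdkn2a and Fbll1.

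All 190 libraries came from wild-type males, with RNA from tail-vein blood. The 180 conventional libraries came from 9 cohorts of 10 in conventional housing, each sampled on its own first day (2, 5, 9, 12, 16, 19, 23, 26 or 30 for cohorts 1 to 9). A second sampling followed, for the odd-numbered cohorts on day 44 and for the even-numbered ones on day 40. The other 10 came from 1 cohort in specific-pathogen-free (SPF) housing, with 5 libraries on day 16 and 5 on day 44, all with a dermatitis score of 0. In the conventional cohorts 58 of 90 libraries had a score of 0 in the first sampling and 7 of 90 in the second. The labels give no age, and each first day, like SPF housing, is a single cohort, so day or housing and cohort cannot be told apart.

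Ribosome production begins in the nucleolus, where RNA polymerase I makes a long precursor RNA that is cut, trimmed and modified while proteins assemble on it. The small-subunit (SSU) processome prepares the 18S RNA, other assembly factors build the 60S subunit, the RNA exosome trims and degrades the pieces cut away, and small nucleolar RNA-protein particles (snoRNPs) of the box C/D and box H/ACA kinds guide methylation and pseudouridylation. Mature neutrophils and red cells, which make up much of blood, produce few new ribosomes, while lymphocytes that divide produce many.

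By role, 40 members belong to the SSU processome, 5 to late 40S maturation, 30 to 60S assembly, 24 to the exosome and other nucleases, 4 to box C/D snoRNPs, 5 to box H/ACA snoRNPs and 7 to mitochondrial rRNA modification or processing. The class of the exosome and nucleases also holds exosome cofactors such as C1d, and Sbds and Lsm6, which are neither exosome subunits nor nucleases. The remaining 14 members carry the term but were on none of the lists for these roles, and are called the other annotated genes. Some of them are better known for other work. They include Isg20, an interferon-stimulated exonuclease, and Chd7, a chromatin remodeller. The tested members with one of the first 7 roles are called assembly factors below, and their summary in a library is the mean of their log2 CPM (counts scaled to library size).

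RefSeq promoter windows (250 bases before to 50 after a transcript start, build GRCm38.p6, not the build of the count table) were found for 80.6% of the members. The E-box CACGTG, the letters that Myc with Max binds and that read alike on both strands, was in 15.6% of the members' windows and in 7.15% of all 32851 windows of this length. By gene, 16 members (15.4% of those with a window) had an E-box, against 8.09% of all 27025 genes. It was in 12 of 77 members called lower at the second sampling, in 1 of 6 called higher and in 3 of 18 not called. For the trend over the first sampling days it was in 12 of 60 called lower, 0 of 3 higher and 4 of 38 not called. Against SPF on day 44 it was in 7 of 39 called lower and 9 of 62 not called. The GC box GGGCGG on either strand was in 60.7% of member windows and 35.7% of all windows, and CCAAT on either strand in 36.1% and 37.4%. A match to these letters is a description and not a site. The windows of 4 members are shown because they had the largest falls at the second sampling among members with an E-box window: Pes1, a 60S assembly factor, and Nol11, Utp18 and Utp20 of the SSU processome. Capitals mark the E-box, which starts at base 253 of the 300 bases in Pes1, base 208 in Nol11, base 231 in Utp18 and base 288 in Utp20. The windows lie on the plus strand at chr11:3963725-3964024 for Pes1 and on the minus strand at chr11:107189332-107189631 for Nol11, chr11:93885717-93886016 for Utp18 and chr10:88826765-88827064 for Utp20.
Pes1: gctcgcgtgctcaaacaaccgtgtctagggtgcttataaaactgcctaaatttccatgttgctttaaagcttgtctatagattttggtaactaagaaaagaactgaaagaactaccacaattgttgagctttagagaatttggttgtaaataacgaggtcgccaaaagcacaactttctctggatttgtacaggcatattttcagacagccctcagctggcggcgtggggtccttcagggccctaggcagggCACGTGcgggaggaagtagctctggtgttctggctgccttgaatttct
Nol11: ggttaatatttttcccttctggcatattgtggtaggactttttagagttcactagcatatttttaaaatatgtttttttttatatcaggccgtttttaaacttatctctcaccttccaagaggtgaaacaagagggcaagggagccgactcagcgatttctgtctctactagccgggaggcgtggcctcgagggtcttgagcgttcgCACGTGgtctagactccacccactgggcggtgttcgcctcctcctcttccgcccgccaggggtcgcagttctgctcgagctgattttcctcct
Utp18: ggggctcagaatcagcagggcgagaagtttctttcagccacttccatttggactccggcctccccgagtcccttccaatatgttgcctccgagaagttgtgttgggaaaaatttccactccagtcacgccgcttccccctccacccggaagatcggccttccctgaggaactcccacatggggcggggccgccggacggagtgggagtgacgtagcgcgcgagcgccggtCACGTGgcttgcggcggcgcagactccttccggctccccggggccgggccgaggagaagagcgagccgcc
Utp20: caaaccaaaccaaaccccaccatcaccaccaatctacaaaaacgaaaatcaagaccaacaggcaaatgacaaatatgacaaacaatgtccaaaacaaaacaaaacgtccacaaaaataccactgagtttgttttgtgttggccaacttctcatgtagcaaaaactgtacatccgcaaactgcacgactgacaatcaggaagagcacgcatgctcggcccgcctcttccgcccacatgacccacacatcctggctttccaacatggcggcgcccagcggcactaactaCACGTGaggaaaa

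Total counts per library ran from 21444129 to 71967299 (median 36448182), and the members took 0.0918% to 0.280% of them. The median share of counts on globin genes was 3.58% in cohorts 1 to 4, 6.84% in cohort 5, 7.83% in cohorts 6 to 9 and 3.59% in SPF, and that on mitochondrial rRNA genes was 6.92%, 14.7%, 15.4% and 7.38%. The SPF library of day 16, replicate 3, had 45.3% of its counts on globin genes. Because these shares split the cohorts, values are also given within cohorts 1 to 4 and within cohorts 6 to 9.

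Per transcript length, most members were at low levels. The median over members of the median deposited TPM (abundance scaled for gene length and depth) was 0.691, against 0.065 over all protein-coding genes. Over genes with a median above 0 it was 0.711 and 0.594. The members with the highest TPM were other annotated genes. Isg20 (chr7:78563172-78570144, plus strand, build GRCm39) had a median TPM of 173.4, with a range of 108.05 to 518 over 190 libraries. The RNA helicase gene Ddx17 was at a TPM of 7.34 and Frg1 at 5.06. Among assembly factors the 40S methyltransferase gene Emg1 was highest, at 4.83. The lowest tested members with counts in most libraries were Mrm2, a mitochondrial rRNA methyltransferase, at a TPM of 0.132, Rpp40, an RNase P subunit, at 0.104, Bysl of the SSU processome at 0.0990 and the endonuclease gene Ybey at 0.0985.

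Exosc6, an exosome ring subunit, was listed at 0 in 150 of 190 libraries, and its smallest count above 0 was 19. It is counted where it passed a test, but a fitted value of it is no fold. Gemin4, best known from the SMN complex, was listed at 0 in 8 libraries, while its smallest other count was 16. Of all members 59 overlap another gene, 55 of them one on the opposite strand, Pes1, Wdr12, Rrp9 and Bop1 among them. Gemin4, Exosc6 and Utp14b are among 5 with an overlap on their own strand. The strand setting of the counting is not given in the sources used here, so reads of such pairs may not be told apart.

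The first sampling asks how these genes ran from day 2 to day 30, as dermatitis began. Most assembly factors were lower on later days, and a few other annotated genes were higher. Over 90 libraries the linear trend was called lower for 75 members and higher for 6 (edgeR's quasi-likelihood test, Benjamini-Hochberg adjusted p under 0.05). Of all genes tested 25.8% were called lower and 26.5% higher, 52.3% in all. The median log2 trend per 10 days was -0.10 over members and -0.00019 over all genes. Every rise, fall or difference given for a gene below is on the log2 scale, here per 10 days. Whole blood was measured, so fewer cells of a type and less RNA per cell cannot be told apart here.

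The assembly factor mean (log2 CPM, with lowest and highest of 10 libraries) had a median of 2.40 (2.28 to 2.49) on day 2, 2.40 (2.32 to 2.48) on day 5, 2.32 (2.22 to 2.49) on day 9 and 2.22 (1.99 to 2.35) on day 12. It was 2.25 (1.99 to 2.37) on day 16, 2.22 (1.94 to 2.36) on day 19, 2.13 (1.89 to 2.30) on day 23, 2.19 (1.78 to 2.30) on day 26 and 2.09 (1.93 to 2.24) on day 30. Every day 30 library lay below every day 2 library, while neighbouring days overlapped. The 5 SPF libraries were at 2.41 (2.28 to 2.52) on day 16 and 2.40 (2.31 to 2.53) on day 44.

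**Figure D1:**
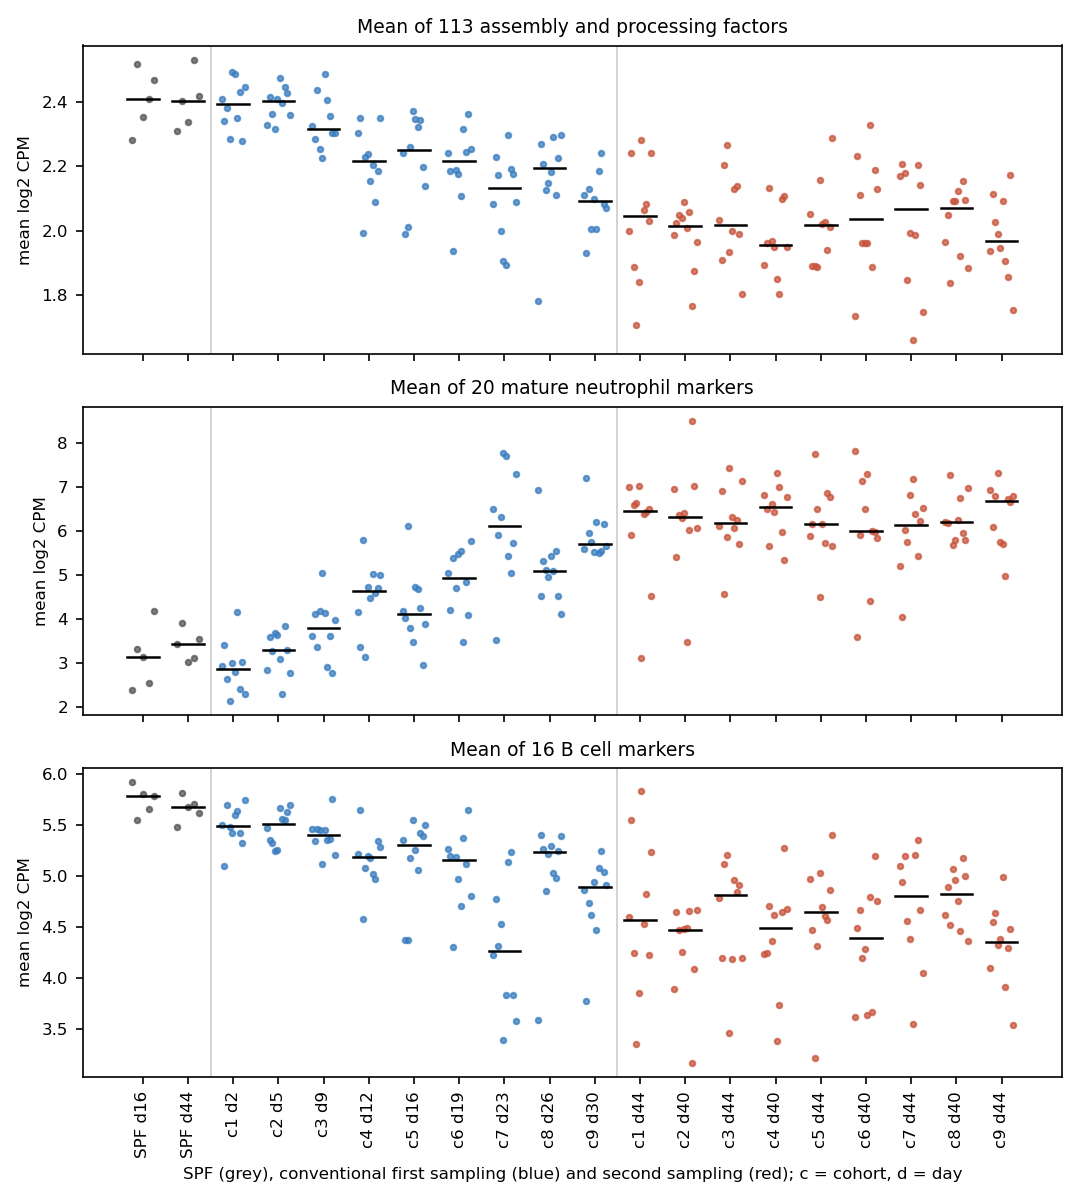
Each point is 1 library and each line a group median, for the mean log2 CPM of the assembly factors, 20 mature neutrophil markers and 16 B cell markers in the 20 groups (grey SPF, blue first sampling, red second sampling). The assembly factor medians go from 2.40 on day 2 to 2.09 on day 30 and lie between 1.96 and 2.07 in the second samplings.

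Of the 40 SSU processome genes 23 fell along the first days and 0 rose. The largest fall was in Rrp9, which encodes a protein of the U3 snoRNP. Its CPM had a median of 2.32 (1.80 to 3.04) on day 2, 2.77 (2.18 to 3.25) on day 5, 1.53 (0.670 to 3.52) on day 12 and 1.21 (0.441 to 2.23) on day 30. The day 5 median was the highest, and days 2 and 30 overlapped. Its log2 trend per 10 days was -0.36 (SE 0.053, adjusted p = 7.32e-09). The helicase gene Ddx49 fell by 0.29 (SE 0.041), Tbl3 by 0.29 (SE 0.051), Rrp12 by 0.26 (SE 0.042) and Pwp2 by 0.25 (SE 0.039). Utp20, a large scaffold protein of the processome, fell less, by 0.081 (SE 0.026, adjusted p = 0.00605). Heatr1 (-0.025, adjusted p = 0.345) and the rRNA acetyltransferase gene Nat10 (0.0087, adjusted p = 0.837) did not pass.

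Of 30 genes of 60S assembly 21 fell and 0 rose. Pes1, Bop1 and Wdr12 encode the PeBoW complex, which is needed to mature the 28S and 5.8S RNAs. Pes1 (chr11:3913975-3930004, plus strand, GRCm39) had a median CPM of 7.78 (5.90 to 11.1) on day 2, 8.36 (7.19 to 10.1) on day 5, 6.14 (4.57 to 7.54) on day 16 and 4.91 (3.99 to 6.69) on day 30. All day 5 libraries lay above those of day 30. The trend of Pes1 was -0.27 (SE 0.029, adjusted p = 1.65e-13). Bop1 fell by 0.12 (SE 0.040, adjusted p = 0.0102), but Wdr12 did not pass (-0.025, adjusted p = 0.474). Its CPM was 9.28 (7.91 to 10.48) on day 2 and 8.58 (5.85 to 10.6) on day 30, and the days overlapped. The helicase genes Ddx56 and Ddx54 fell by 0.28 (SE 0.035) and by 0.22 (SE 0.043).

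Of 23 tested genes of the exosome and other nucleases 14 fell and 2 rose. The exosome cap subunit gene Exosc2 fell by 0.28 (SE 0.034) and Exosc10, a catalytic subunit, by 0.18 (SE 0.031). C1d, an exosome cofactor, rose by 0.088 (SE 0.031, adjusted p = 0.0131) and Rpp30 of RNase P by 0.094 (SE 0.040, adjusted p = 0.0424). Of 3 tested box C/D genes 1 fell, Fbl, the methyltransferase of these particles, by 0.21 (SE 0.031, adjusted p = 1.24e-08). Of 5 box H/ACA genes 2 fell, Nhp2 by 0.23 (SE 0.045) and Nop10 by 0.22 (SE 0.031), while the pseudouridine synthase gene Dkc1 did not pass (-0.027, adjusted p = 0.331). Of 7 mitochondrial rRNA genes 5 fell, Mrm2 by 0.25 (SE 0.069) among them, and of 5 late 40S genes 4 fell.

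Of the 13 tested other annotated genes 4 rose and 5 fell. Chd7 went from 26.7 (20.9 to 30.4) CPM on day 2 to 40.4 (35.4 to 49.7) on day 30 with no overlap, and rose by 0.21 (SE 0.027, adjusted p = 6.48e-11). Frg1, a splicing-associated gene, rose by 0.19 (SE 0.034, adjusted p = 2.49e-06) and Ddx17 by 0.044 (SE 0.018, adjusted p = 0.0295). Isg20, at 385 (305 to 594) CPM on day 2 and 484 (316 to 735) on day 30, did not pass (0.034, adjusted p = 0.605). Gemin4 fell by 0.32 (SE 0.070).

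Within cohorts 1 to 4 (days 2 to 12) 43 members and 23.3% of all genes were called, and within cohorts 6 to 9 (days 19 to 30) 1 and 2.53%. The test of the difference between these trends called 4 members, Nop53, Dcaf13, Exosc4 and Ddx17, against 7.88% of all genes. In libraries of score 0 alone 54 members were called, 48 of them as over all 90 libraries, against 34.7% of all genes. With the globin and mitochondrial rRNA shares as covariates 50 were called, against 34.5% of all genes. The sign turned for 11 of the members called without them, Bop1, Ppan, Wdr18, Ddx54, Exosc5, C1d and Rpp30 among them. All 20 mature neutrophil markers rose along these days, 14 of 16 B cell and 10 of 16 T cell markers fell, and the neutrophil marker mean went from 2.87 (2.13 to 4.15) on day 2 to 5.72 (5.51 to 7.21) on day 30. The marker lists were chosen with earlier results of these data known, so counts of markers here and below are descriptions. With the neutrophil, B cell, T cell and erythroid marker means as covariates 26 members were called, 19 of them as before, against 17.9% of all genes, and Pes1 was at -0.24, SE 0.045, adjusted p = 9.32e-05.

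Each conventional cohort was then compared with itself at the second sampling, when most libraries had a score above 0. Most assembly factors of every large role were lower, and a smaller number, Isg20 and Frg1 among them, was higher. Over 180 libraries, with cohort as a covariate, 92 members were called lower and 11 higher. Of all genes 30.6% were called lower and 31.4% higher, 62.1% in all. The median log2 change was -0.21 over members and -0.019 over all genes.

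**Figure D2:**
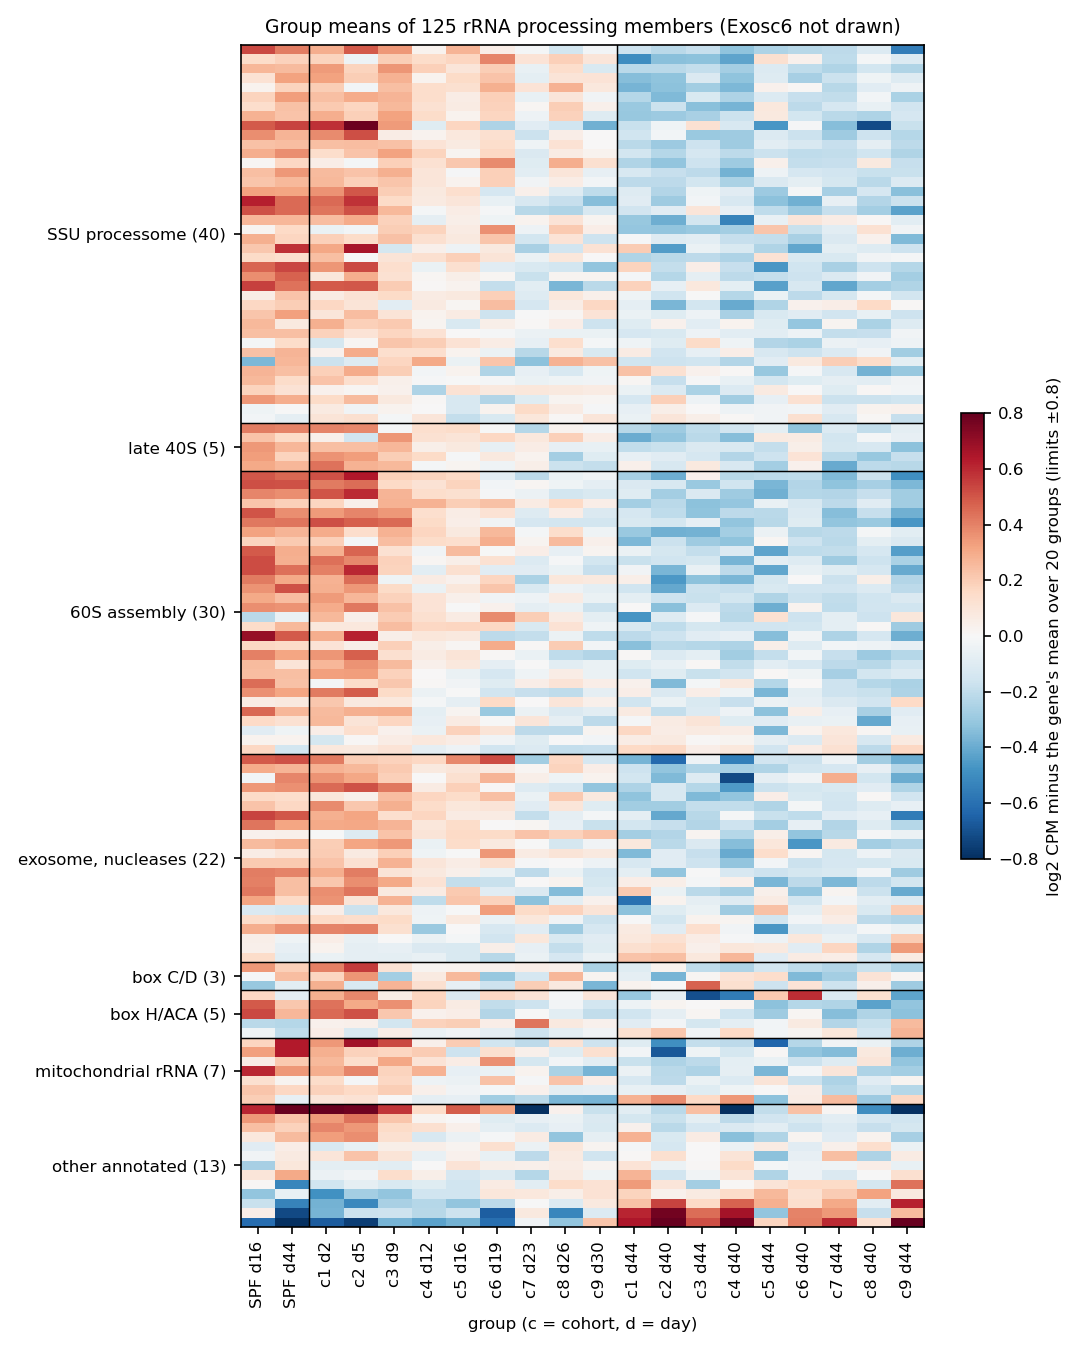
Rows are the tested members (Exosc6 not drawn) by role, columns the 20 groups, and colour is the group's mean log2 CPM minus the gene's mean over the groups (red higher, blue lower, limits ±0.8). Most rows go from red in SPF and the earliest first samplings to blue in the second samplings, and some of the other annotated genes, Isg20 and Frg1 among them, go the other way.

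The change was larger where the first sample was early. The median log2 change over the assembly factors was -0.38 in cohort 1, -0.43 in cohort 2, -0.30 in cohort 3 and -0.27 in cohort 4. It was -0.18 in cohort 5, -0.17 in cohort 6, -0.12 in cohort 7, -0.13 in cohort 8 and -0.12 in cohort 9. From 71.7% (cohort 7) to 91.2% (cohort 2) of them had a lower mean. In SPF, between days 16 and 44, the median over the assembly factors was -0.017, with 61.1% lower. Over all genes it was 0.031, with 44.7% lower. The second samplings lay close together, with medians of the assembly factor mean from 1.96 to 2.07. The test of the difference in change between cohorts 6 to 9 and cohorts 1 to 4 called 42 members (33.3%, against 25.1% of all genes). It was more positive in cohorts 6 to 9 for 41 of them, for example by 0.40 (SE 0.091, adjusted p = 0.000257) for Pes1 and 0.58 (SE 0.11, adjusted p = 8.28e-06) for Exosc2.

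Of the 40 SSU processome genes 33 fell at the second sampling and 0 rose, with a median of -0.21. Utp20 CPM went from 18.7 (17.1 to 20.6) to 13.6 (10.6 to 17.6) in cohort 3 and from 17.03 (14.04 to 20.7) to 12.3 (9.28 to 17.8) in cohort 6. The samplings overlapped in both cohorts. It fell by 0.29 (SE 0.038, adjusted p = 1.36e-11). Rrp36 fell by 0.38 (SE 0.060, adjusted p = 9.47e-09), Wdr75 by 0.34 (SE 0.039), Nol11 by 0.32 (SE 0.044), Utp18 by 0.31 (SE 0.047) and Heatr1, which links the processome to polymerase I, by 0.17 (SE 0.033). Nat10 (-0.096, adjusted p = 0.0855) and Bysl (-0.083, adjusted p = 0.262) did not pass. All 5 late 40S genes fell, with changes from -0.24 to -0.18.

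Of the 60S assembly genes 25 of 30 fell and 1 rose, and now all 3 PeBoW genes fell. Pes1 went from 8.36 (7.19 to 10.1) to 4.70 (3.21 to 5.64) CPM in cohort 2 and from 5.01 (3.896 to 6.16) to 4.66 (3.86 to 6.16) in cohort 8. The samplings were apart in cohort 2 and overlapped in cohort 8. Pes1 fell by 0.36 (SE 0.046, adjusted p = 6.25e-12). Wdr12 went from 10.1 (6.97 to 10.9) to 6.45 (5.45 to 7.86) CPM in cohort 3 and fell by 0.35 (SE 0.046, adjusted p = 2.81e-11), and Bop1 fell by 0.32 (SE 0.058). Ppan, needed for early 60S steps, fell by 0.38 (SE 0.062, adjusted p = 2.56e-08), the methyltransferase gene Ftsj3 by 0.35 (SE 0.039) and Wdr74 by 0.37 (SE 0.063). The helicase gene Ddx27 rose by 0.16 (SE 0.056, adjusted p = 0.00915), although it fell along the first days by 0.11 (SE 0.023).

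In the class of the exosome and nucleases 18 of 23 fell and 3 rose, of which only Exosc9 is an exosome subunit. Rpp40 fell by 0.35 (SE 0.089), Exosc8 by 0.32 (SE 0.042), Exosc2 by 0.31 (SE 0.053) and Exosc10 by 0.18 (SE 0.047). Exosc9, another ring subunit, rose by 0.23 (SE 0.065, adjusted p = 0.00094). Sbds, which helps release an anti-association factor from the 60S particle, rose by 0.22 (SE 0.049) and Lsm6 by 0.081 (SE 0.032). Among the snoRNP genes Fbl fell by 0.26 (SE 0.046), and of box H/ACA Nop10 by 0.26 (SE 0.041) and Nhp2 by 0.25 (SE 0.062). Dkc1 was the only snoRNP gene that rose, by 0.19 (SE 0.056, adjusted p = 0.00236), and the rest did not pass. Of 7 mitochondrial rRNA genes 5 fell, Mrm2 by 0.33 (SE 0.11) among them, while the methyltransferase gene Mrm1 rose by 0.33 (SE 0.075, adjusted p = 4.89e-05).

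**Figure D3:**
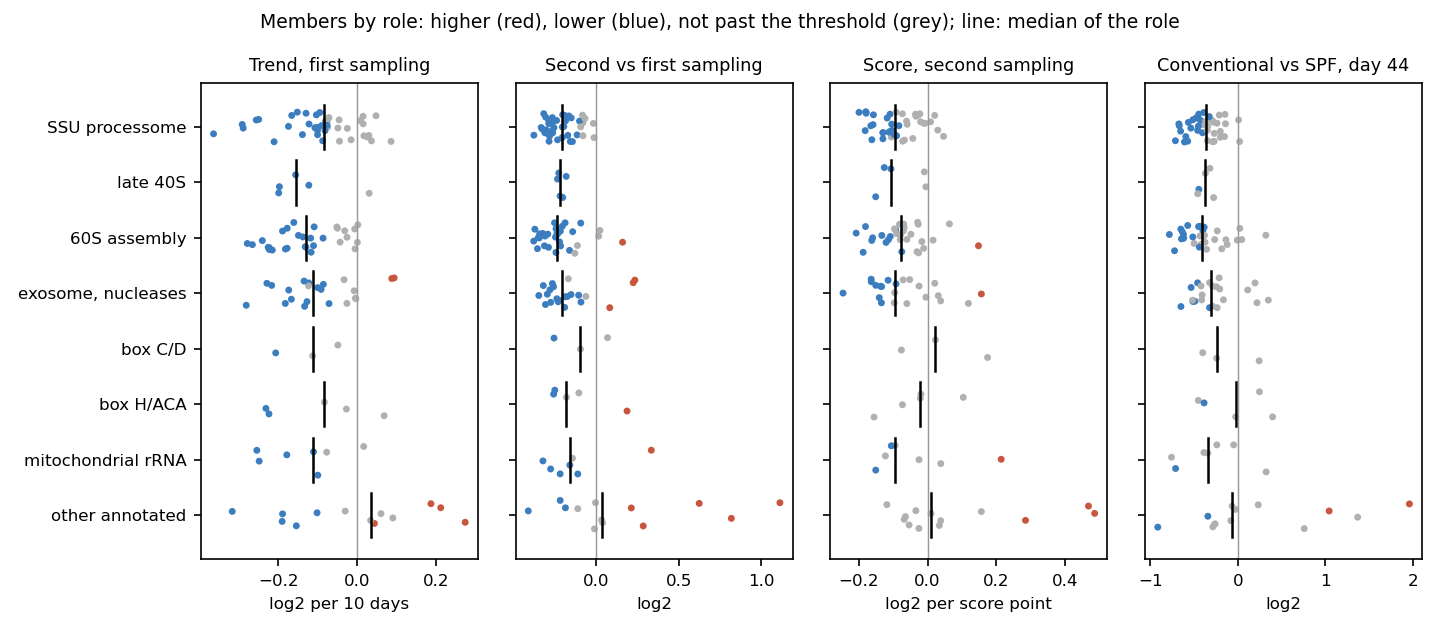
Each point is 1 tested member (Exosc6 not drawn) at its log2 value in 4 comparisons, by role. Red points were called higher, blue lower and grey neither, and the line is the role median. No SSU processome point is red, and the highest values belong to the other annotated genes.

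Isg20, Frg1, Chd7 and Pin4 were among the 5 other annotated genes that rose. Isg20 went from 479 (343 to 599) to 792 (464 to 2471) CPM in cohort 2, and its median was lower at the second sampling in cohort 5, 449 (255 to 886) and 356 (232 to 1072). Over all cohorts it rose by 0.82 (SE 0.11, adjusted p = 8.85e-11). Chd7 went from 26.7 (20.9 to 30.4) to 42.3 (28.96 to 55.8) CPM in cohort 1, and the samplings overlapped. Over all cohorts Frg1 rose by 0.62 (SE 0.081, adjusted p = 1.01e-11), Chd7 by 0.28 (SE 0.040) and Pin4, a peptidyl-prolyl isomerase gene, by 0.21 (SE 0.076).

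Few libraries held the highest values. Frg1 was highest at 112.1 CPM in cohort 9 on day 44, replicate 7, then at 83.05 in cohort 1 on day 44, replicate 4, and at 60.7 in cohort 9 on day 44, replicate 10. Isg20 was highest at 3210.4 CPM in the same cohort 1 library and at 3184 in cohort 7 on day 44, replicate 4. The erythroid marker mean of these 4 libraries was 10.95 to 11.69, where group medians ran from 7.38 to 9.27, and their B cell marker mean was 3.35 to 4.56, where group medians ran from 4.26 to 5.78. Their part in these single values was not tested.

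**Figure D4:**
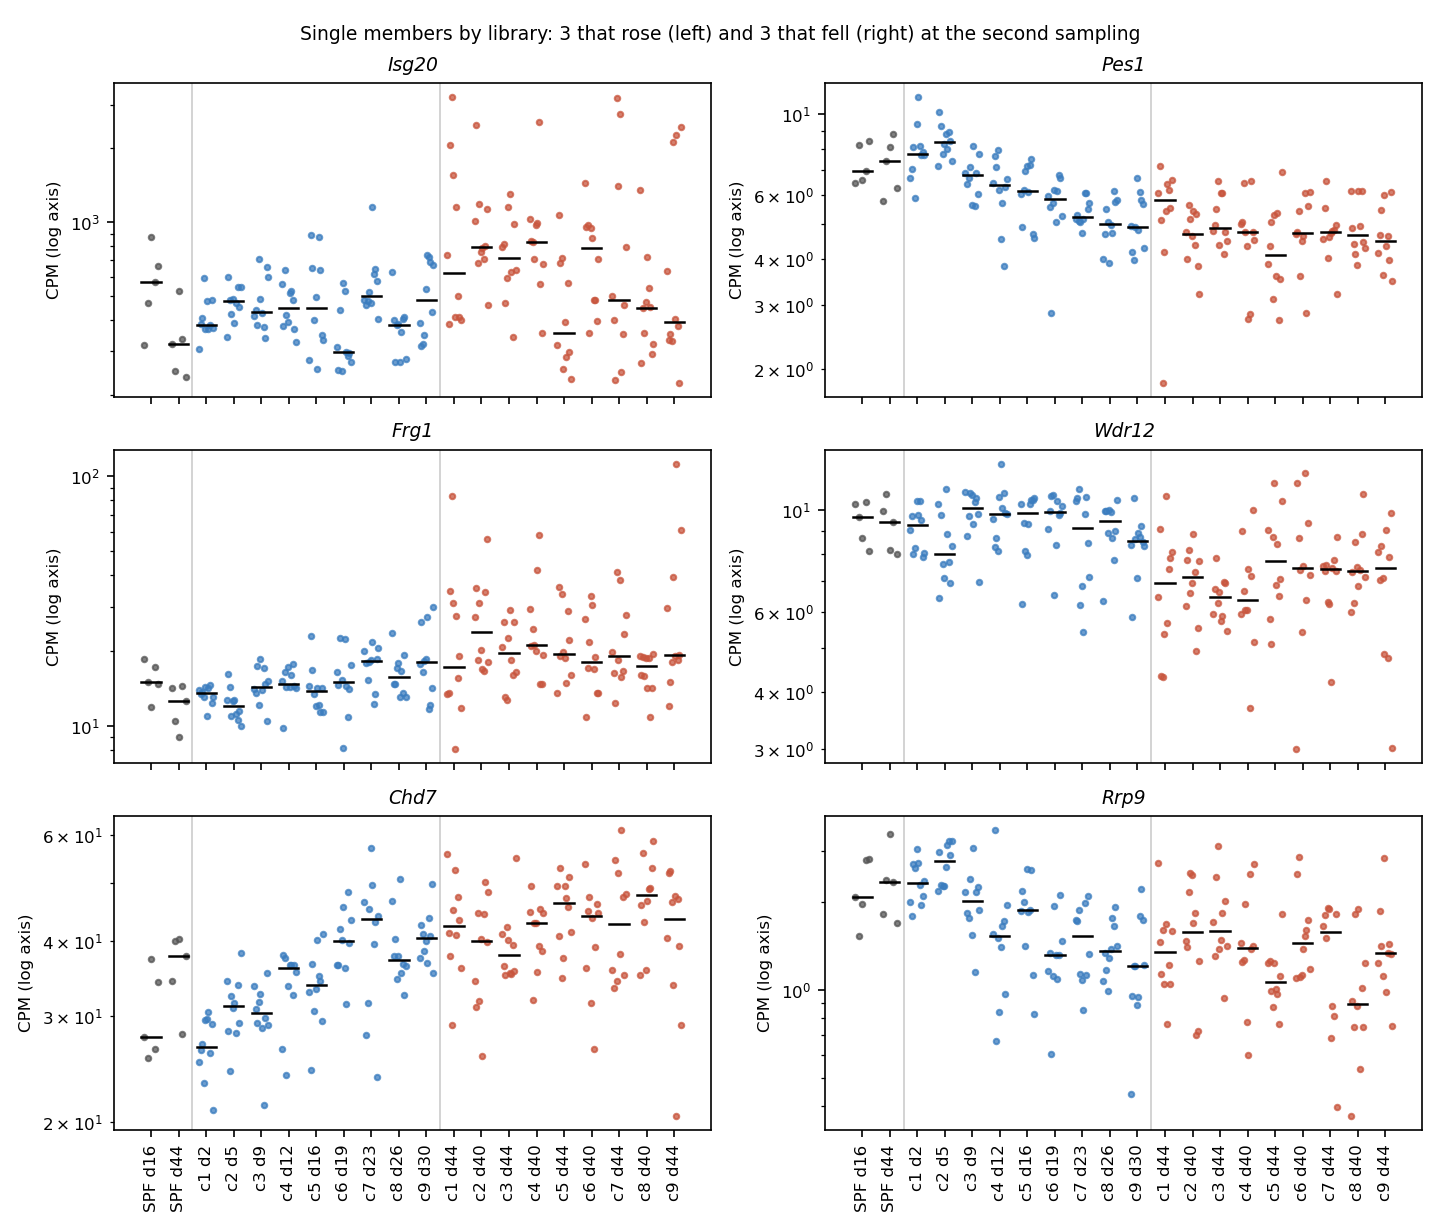
CPM on a log axis in every library, by group, for Isg20, Frg1 and Chd7 (left) and Pes1, Wdr12 and Rrp9 (right), with lines at the group medians. Single second-sampling libraries reach 3210.4 CPM for Isg20 and 112.1 for Frg1, while the highest SPF values are 871 and 18.6.

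Cell markers moved with the second sampling. All 20 neutrophil markers rose, all 16 B cell and 12 of 16 T cell markers fell, and 14 markers of the erythroid list and 12 of 13 cycling markers rose. With the 4 cell type means as covariates 6 members (4.76%) were called, all 6 in the same direction as before, against 5.91% of all genes. The share of members was thus no higher than that of all genes. Among the members were Rrp36 (-0.33, SE 0.081, adjusted p = 0.0044), Ppan (-0.25, SE 0.074, adjusted p = 0.0235), Bop1 (-0.23, SE 0.073, adjusted p = 0.0402), Pes1 (-0.19, SE 0.056, adjusted p = 0.0224) and Ftsj3 (-0.16, SE 0.042, adjusted p = 0.0111). Isg20 was then at -0.12, adjusted p = 0.0744 and Frg1 at 0.097, adjusted p = 0.323. Of the members called without these covariates 84 kept their sign and 19 did not. Within cohorts 1 to 4 95 members were called lower and 9 higher, against 31.2% and 32% of all genes. Within cohorts 6 to 9 24 were lower and 5 higher, against 6.35% and 13.6%.

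**Figure D5:**
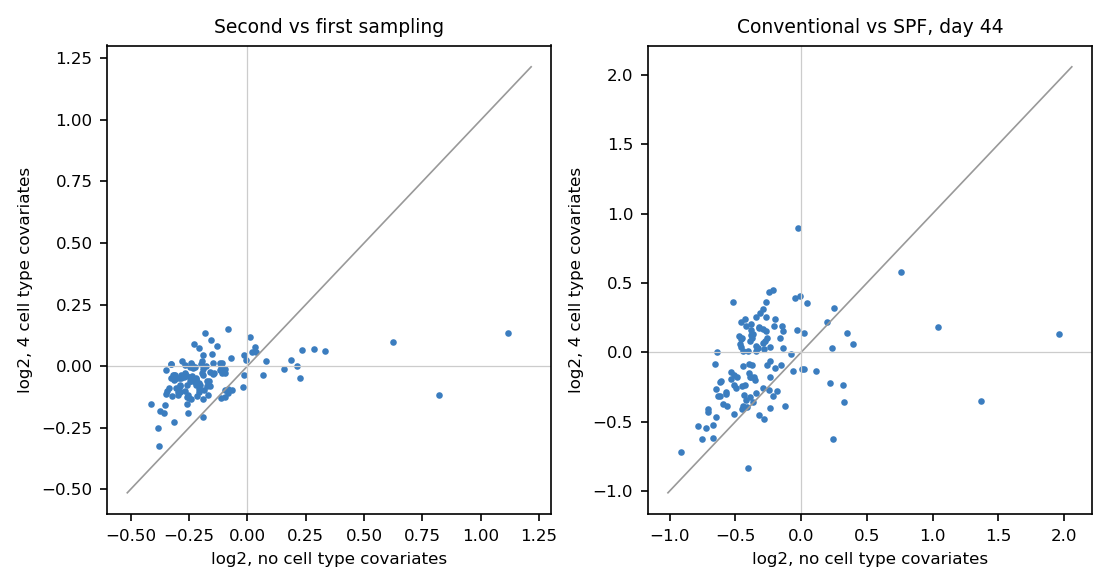
Each point is 1 tested member (Exosc6 not drawn), with its log2 value without (x axis) and with (y axis) the means of 4 cell type marker lists as covariates, and the diagonal marks equal values. The median over tested members is -0.21 without and -0.043 with them at the second sampling, and -0.35 and -0.090 for conventional against SPF on day 44.

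Severity was examined through the slope on the dermatitis score, with cohort as a covariate. In the 90 second-sampling libraries 48 members were called lower with a higher score and 6 higher, against 17.7% and 18.9% of all genes. The assembly factor mean had a median of 2.24 (1.96 to 2.33, n = 7) at score 0, 2.05 (2.01 to 2.17, n = 5) at score 0.5, 2.03 (1.89 to 2.23, n = 11) at score 1, 2.05 (1.75 to 2.24, n = 27) at score 2 and 1.95 (1.66 to 2.27, n = 39) at score 3. The library of score 4 was at 1.93. All neighbouring scores from 0 to 3 overlapped.

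Among the SSU processome genes 21 of 40 fell with the score and 0 rose. Dcaf13 fell by 0.20 (SE 0.034, adjusted p = 6.18e-06) per score point, Utp11 by 0.18 (SE 0.031) and Esf1 by 0.18 (SE 0.036). These 3 had not passed along the first days, and Rrp9, Ddx49, Tbl3, Rrp12 and Pwp2, which fell most there, had score slopes from -0.073 to -0.0072 that did not pass. Of the 60S genes 11 of 30 fell, led by Brix1 by 0.21 (SE 0.038) and Nol8 by 0.19 (SE 0.029). Wdr12 CPM was 10.47 (7.36 to 12.1) at score 0, 7.75 (6.35 to 11.5) at score 1, 7.23 (3.02 to 10.8) at score 2 and 6.22 (3.005 to 8.74) at score 3. The medians went down with the score while the ranges overlapped, and the slope was -0.18 (SE 0.036, adjusted p = 6.17e-05). Pes1 fell by 0.092 (SE 0.036). Of the exosome and nucleases 11 of 23 fell, Rpp40 by 0.25 (SE 0.076), and none of the 8 snoRNP genes passed.

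Of the 6 members that rose with the score, Isg20 rose by 0.49 (SE 0.10, adjusted p = 0.000161), Frg1 by 0.28 (SE 0.073), Mrm1 by 0.21 (SE 0.072), Sbds by 0.16 (SE 0.046) and Ddx27 by 0.15 (SE 0.053). Isg20 CPM had a median of 399.8 (232 to 486) at score 0, 398 (248 to 959) at score 1, 710.1 (269 to 3184) at score 2 and 802 (229 to 3210.4) at score 3. It ranged most widely at scores 2 and 3, where the lowest libraries lay below the highest of score 0. Within cohorts 1 to 4 36 members and 29.7% of all genes were called, and within cohorts 6 to 9 0 members and 0 of all genes, with 28 members at an unadjusted p under 0.05. The difference of the slopes was called by edgeR for 0 members and 0% of all genes. At an unadjusted p under 0.05 there were 10 members, and the count over all genes is not given here. All 20 neutrophil markers rose with the score, all 16 B cell markers fell, and 14 markers of the erythroid list rose. With the cell type means as covariates edgeR called 0 members (3 at an unadjusted p under 0.05), against 0.022% of all genes.

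In the first sampling of days 12 to 30 (60 libraries) 7 members fell with the score and 2 rose, against 3.86% and 6.19% of all genes. Rrp9 CPM had a median of 1.68 (0.826 to 3.52) at score 0 and 1.08 (0.441 to 1.33) at score 2. These ranges overlapped, and Rrp9 fell by 0.34 (SE 0.11, adjusted p = 0.0333) per score point. Exosc5 fell by 0.28 (SE 0.090), Pdcd11 by 0.27 (SE 0.064), Utp14b by 0.25 (SE 0.082), Utp25 by 0.19 (SE 0.060), Wdr12 by 0.18 (SE 0.053) and Utp20 by 0.18 (SE 0.051). Lsm6 was among those that rose, by 0.14 (SE 0.044). With the cell type means as covariates edgeR called 0 members (3 at an unadjusted p under 0.05) and 0% of all genes.

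Conventional mice were compared with SPF mice on 2 days. On day 16, when 8 of 10 libraries of cohort 5 had a score of 0, edgeR called 0 members, against 0.473% of all genes. DESeq2 called 0, and 24 members had an unadjusted p under 0.05. The median log2 difference was -0.20 over members and 0.046 over all genes. On day 44 the 50 conventional libraries of 5 cohorts were compared with 5 SPF libraries, and 45 members were called lower and 2 higher, against 9.04% and 10.7% of all genes. The median difference was -0.35 over members and -0.0019 over all genes.

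The lower members on day 44 were 19 of 40 in the SSU processome, 14 of 30 in 60S assembly and 7 of 23 among the exosome and nucleases. Ppan CPM in SPF was 2.77, 3.21, 4.77, 4.65 and 3.15, and the 50 conventional libraries ran from 0.731 to 3.998, with cohort medians from 1.88 to 2.27. The groups overlapped, but every cohort median lay below the lowest SPF library. Ppan was lower by 0.78 (SE 0.18, adjusted p = 0.00188). Utp20 CPM in SPF was 19.7, 21.6, 15.8, 19.5 and 21.1, and the conventional cohort medians ran from 12.9 to 13.9. It was lower by 0.54 (SE 0.12, adjusted p = 0.00163). Pes1 CPM in SPF was 5.78, 7.42, 8.12, 8.81 and 6.26, and the cohort medians ran from 4.12 to 5.80. Here the cohort 1 median lay just above the lowest SPF value, and Pes1 was lower by 0.57 (SE 0.15, adjusted p = 0.00642). Wdr18 by 0.72 (SE 0.17), Rrp9 by 0.71 (SE 0.23), Tfb1m, a mitochondrial methyltransferase, by 0.71 (SE 0.23), Pwp2 by 0.67 (SE 0.16) and Rrp36 by 0.67 (SE 0.18) were lower too.

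Frg1 was at 14.1, 10.49, 9.01, 14.4 and 12.6 CPM in SPF and from 8.06 to 112.1 in the conventional libraries. These overlapped, and Frg1 was higher by 1.04 (SE 0.39, adjusted p = 0.0498), just under the threshold. The count of members called higher, 2 here, was 1 with median-of-ratios size factors, no filter or the replicate block. It was also 1 in each fit without 1 SPF replicate, 3 with DESeq2 and 2 with the globin and mitochondrial rRNA shares. Isg20, at 319.9, 249, 529, 336 and 236 CPM in SPF, did not pass (1.37, adjusted p = 0.0789). The count of called members was 28 without SPF replicate 3, 23 without replicate 4 and 31 without replicate 5. The same fits called 10.3%, 12.1% and 13.5% of all genes, against 19.7% with every replicate, so calls fell over all genes too. Without replicate 1, 38 members were called lower and 1 higher, against 15.1% of all genes called. Without replicate 2, 34 were called lower and 1 higher, against 12.9%. All 20 neutrophil markers were higher and 15 of 16 B cell markers lower. With the cell type means as covariates edgeR called 0 members (14 at an unadjusted p under 0.05) and 346 of all genes.

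Cohort 5 and the SPF cohort were sampled on the same days. From day 16 to day 44 cohort 5 had 14 members called lower and 2 higher, against 3.88% and 8.49% of all genes. Of all calls in that change 68.6% were higher with TMM scaling and 58.6% with median-of-ratios scaling. Rrp9 CPM went from 1.87 (0.826 to 2.59) to 1.06 (0.763 to 1.82). The days overlapped, and Rrp9 fell by 0.69 (SE 0.20, adjusted p = 0.016). Bop1 fell by 0.62 (SE 0.18), Pwp2 by 0.62 (SE 0.14), Ppan by 0.57 (SE 0.15), Ddx54 by 0.56 (SE 0.15), Rrp1b by 0.56 (SE 0.18) and Pes1 by 0.49 (SE 0.14), while Frg1 rose by 0.64 (SE 0.16) and Chd7 by 0.41 (SE 0.10). With the cell type means as covariates edgeR called 0 members (17 at an unadjusted p under 0.05), against 0.104% of all genes.

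In SPF Rrp9 was at 2.08, 1.53, 1.98, 2.78 and 2.80 CPM on day 16 and at 1.82, 2.38, 3.41, 2.35 and 1.69 on day 44, which overlapped. Over these days edgeR called 0 members and 0% of all genes in SPF, and DESeq2 called 0, with 2 members at an unadjusted p under 0.05 in edgeR. The difference between the changes in cohort 5 and in SPF was called by edgeR for 0 members and 0% of all genes, with 10 members at an unadjusted p under 0.05, while DESeq2 called 1, Gemin4. The changes of cohort 5 and SPF were therefore not shown to differ. The median difference was -0.14 over members.

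Other genes of ribosome production were counted from lists, as a description. Of all genes 25.8% were called lower and 26.5% higher along the first days, and 30.6% and 31.4% at the second sampling. Of 14 tested genes of RNA polymerase I and its factors 9 fell and 2 rose along the first days, and 8 fell and 1 rose at the second sampling. Of 10 nucleolar protein genes 7 fell along the first days and 9 at the second sampling, and of 9 genes of late 60S steps and export 6 and 5 fell. Of 95 cytosolic ribosomal protein genes, which the rule left out, 68 fell and 7 rose along the first days, but 37 fell and 26 rose at the second sampling. Their median was then -0.045, against -0.21 for the members. Of 78 mitochondrial ribosomal protein genes 59 and 50 fell. In the Myc network 4 of 11 rose and 4 fell along the first days, and as many of each at the second sampling. Myc itself passed in neither (-0.010, adjusted p = 0.887, and 0.029, adjusted p = 0.758), and Mxd1, a Max partner that opposes Myc, rose by 0.82 (SE 0.073) per 10 days and by 1.33 (SE 0.11) at the second sampling.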

How the data were processed

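Whole-blood RNA of 190 libraries was prepared with a stranded total RNA kit that removes ribosomal and globin RNA, per the labels. The authors deposited an expected count (estimated count) and a TPM value for each gene and library, made with DRAGEN on GRCm39, per the submitters' processing notes. For DRAGEN, version, annotation and strand setting: not given in the sources used here. Of the count values 2.86% were not whole, and counts were rounded before testing. All 190 count columns were used and 0 were left out.

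A low-count filter (filterByExpr by group, with a minimum count of 10 and 15 in total) passed 18192 genes, and libraries were scaled by TMM. Tests used edgeR 4.0.16 (limma 3.58.1, R 4.3.3), glmQLFit with robust estimation and glmQLFTest, with Benjamini-Hochberg adjustment over all genes tested and a threshold of 0.05. Standard errors were taken as the size of the log2 value over the root of its F statistic. CPM values use TMM library sizes, and log2 CPM a prior count of 2. The deposited TPM values served only for levels between genes. DESeq2 1.42.0, median-of-ratios size factors, no filter, covariates (globin and mitochondrial rRNA shares, or 4 cell type marker means), cohort sets, libraries of score 0, the replicate block and leaving out each SPF replicate were the alternatives. The tests of cohorts 6 to 9 against cohorts 1 to 4, and leaving out the 1 library above 20% globin, were added after seeing the data. Scripts were tested on simulated data. Python 3.11.15, numpy 2.4.6, pandas 2.3.3, scipy 1.17.1 and matplotlib 3.10.9 were used for the rest.

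Of 149 genes with the term 129 were members, 126 of them tested and 113 of these assembly factors, and 104 had 122 promoter windows. The members, roles and gene lists were chosen with earlier results of these data known. In each comparison up to 8 called members with the largest rise and up to 8 with the largest fall are named, with the 5 of highest and the 5 of lowest TPM and a list of well-known members. Other genes named were chosen after their values were seen. The values of 1 member are not reported here, although it is in the counts. Promoter windows were matched by symbol. Nothing in the labels says that a replicate number marks 1 mouse, so p-values measure the spread between libraries. Leaving out the library above 20% globin changed no count of calls by over 1.5 times.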

Additional observations from a re-analysis of the deposited data

Results flagged for a closer look

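Over the 20 groups and 7 measures, 19 had a library whose gap to the nearest other was large against the range of its group. Chance flags about 1 in 20 groups. For the assembly factor mean (log2 CPM) a library stood low in cohort 8 on day 26, replicate 1 (1.78). For Isg20 (CPM) a library stood high in cohort 2 on day 40, replicate 2 (2471), cohort 4 on day 40, replicate 7 (2554), cohort 7 on day 23, replicate 6 (1153), cohort 8 on day 26, replicate 1 (629) and cohort 8 on day 40, replicate 1 (1352). For Frg1 (CPM) a library stood high in cohort 1 on day 44, replicate 4 (83.05), cohort 2 on day 40, replicate 9 (55.8), cohort 5 on day 16, replicate 2 (22.8) and cohort 9 on day 44, replicate 7 (112.1). For Frg1 (CPM) a library stood low in cohort 4 on day 12, replicate 2 (9.79). For Chd7 (CPM) a library stood high in cohort 3 on day 44, replicate 10 (54.98). For Chd7 (CPM) a library stood low in cohort 3 on day 9, replicate 7 (21.4). For Pes1 (CPM) a library stood low in cohort 6 on day 19, replicate 3 (2.85). For Gemin4 (CPM) a library stood high in cohort 2 on day 5, replicate 2 (6.29). For Rrp9 (CPM) a library stood high in cohort 1 on day 44, replicate 1 (2.72), cohort 4 on day 12, replicate 2 (3.52), cohort 5 on day 44, replicate 10 (1.82) and cohort 9 on day 44, replicate 5 (2.83). No cause was tested.

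The other results that stood out are changes that differed between cohorts 6 to 9 and cohorts 1 to 4 by edgeR's test of that difference (adjusted p under 0.05). For the trend over first days the difference in log2 (cohorts 6 to 9 minus cohorts 1 to 4) was -0.49 for Dcaf13, -0.25 for Ddx17, 0.57 for Nop53 and 0.62 for Exosc4. For the second against the first sampling it was 0.58 for Exosc2, -0.31 for Chd7, 0.25 for Utp11, 0.33 for Exosc10, 0.35 for Ddx54, 0.64 for Mrm2, 0.25 for Emg1, 0.26 for Fbl, 0.33 for Wdr18, 0.40 for Pes1, 0.36 for Ddx56, 0.27 for Ftsj3, 0.37 for Brix1, 0.41 for Tbl3 and 0.38 for Wdr74. Globin and mitochondrial rRNA shares also differ between these cohorts, and their part in these differences was not tested.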

How the results depend on the processing

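The count of called members was 81 for the trend over first days, and 50 with the globin and mitochondrial rRNA shares, 26 with the cell type means, 43 within cohorts 1 to 4 and 1 within cohorts 6 to 9. In the same order these fits called 52.3%, 34.5%, 17.9%, 23.3% and 2.53% of all genes. At the second sampling the members' count was 92 lower and 11 higher, and 6 in all with the cell type means and 29 within cohorts 6 to 9. Over all genes 62.1%, 5.91% and 19.9% were called. The members' count was 54 for the score in the second sampling, and 35 with the globin and mitochondrial rRNA shares, 0 with the cell type means and 0 within cohorts 6 to 9. Over all genes 36.6%, 16.8%, 0.022% and 0% were called. For the score in the first sampling 9 members became 0 with the cell type means, and 10.0% of all genes became 0%. Against SPF on day 16 0 became 1 with the globin and mitochondrial rRNA shares, and on day 44 47 became 0 with the cell type means. Over all genes 0.473% became 2.36% on day 16, and 19.7% became 1.9% on day 44. In cohort 5 16 members became 10 with the globin and mitochondrial rRNA shares and 0 with the cell type means. Over all genes 12.4% became 9.66% and 0.104%. The difference between cohort 5 and SPF went from 0 members to 1 with DESeq2, and from 0% to 0.302% of all genes. Leaving out each SPF replicate gave 23 to 39 members on day 44, and 0 to 0 on day 16, for the SPF change and for its difference from cohort 5. On day 44 these fits called 10.3% to 15.1% of all genes, and on day 16 0.148% to 0.594%. Fits within cohort sets hold fewer libraries; the cause of the other moves was not tested. Over all genes, day 16 gave 86 calls with edgeR and 460 with DESeq2. Rrp9 and Gemin4 lie at few CPM, and the part of depth in their values was not tested.

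With the replicate number as a block the counts were 84 for the trend, 93 lower and 9 higher at the second sampling, 0 on day 16, 38 on day 44, 17 in cohort 5, 0 in SPF and 1 (Frg1) for the difference. In the same order these fits called 52.2% of all genes, 32.1% lower and 28.9% higher, 0.291%, 16.1%, 12.9%, 0.0055% and 0.187%. In cohort 5 the members' share was 13.5%, close to that of all genes. The block fit of the second sampling took its dispersions from the design without the block, so its counts come from a fit of another form. The labels do not say whether a number marks the same mouse in both samplings, and expression values cannot settle it. Over 95 same-numbered pairs the correlation of deviations ran from -0.173 to 0.354, 19 were over 0.1, and 14 correlated best with their own number.

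The values below are of members named by the rule, beside the number of all called members whose sign turned. With the cell type means as covariates the sign of the log2 value turned along the first days for 6 members, among the named ones Utp20 (0.011) and Brix1 (0.0063), at the second sampling for 19 members, among the named ones Exosc10 (0.00041), Ddx27 (-0.012), Brix1 (0.010), Dcaf13 (0.074), Sbds (-0.047), Utp11 (0.047), Mrm2 (0.0077), Ybey (0.021) and Isg20 (-0.12), for the score in the second sampling for 15 members, among the named ones Utp20 (0.028), Ddx27 (-0.053), Mrm1 (-0.0035), Sbds (-0.057), Wdr12 (0.0031), Frg1 (-0.066) and Isg20 (-0.029) and on day 44 against SPF for 13 members, among the named ones Exosc6 (1.45). With the globin and mitochondrial rRNA shares as covariates the sign of the log2 value turned along the first days for 11 members, among the named ones C1d (-0.092), Ppan (0.056), Bop1 (0.10), Rpp30 (-0.0031), Ddx54 (0.047), Wdr18 (0.064) and Exosc5 (0.047). Within cohorts 6 to 9 the sign of the log2 value turned along the first days for 18 members, among the named ones C1d (-0.19), Bop1 (0.024), Mrm2 (0.045), Wdr18 (0.021), Wdr74 (0.16) and Ddx17 (-0.057) and at the second sampling for Mrm2 (0.050). Within cohorts 1 to 4 the sign of the log2 value turned along the first days for 2 members, among the named ones Utp20 (0.065). For Exosc6 this is a fitted value of a gene listed at 0 in most libraries. The cause was not tested.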
